A study of Rattus norvegicus with 8 samples.

Results

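Growth hormone signalling in rat liver was followed through 10 genes: the receptors Ghr and Prlr, the kinase Jak2, the transcription factor Stat5b, the feedback inhibitors Cish and Socs2, the transcription factors Bcl6, Cux2 and Onecut1, and the secreted carrier protein Obp3. Every probe set whose platform annotation gave exactly 1 gene symbol among these 10 was taken, which gave 17 of 31042 tested probe sets. All 10 genes were measured, out of 14217 named genes. Ghr, Cish, Cux2, Onecut1 and Obp3 had 2 probe sets each, Prlr had 3, and Jak2, Stat5b, Socs2 and Bcl6 had 1 each.

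The livers came from male Sprague-Dawley rats, an outbred strain, bought at 3 weeks of age and labelled as 7 weeks old. The control group ate a purified AIN93G-based diet in which Avicel replaced cellulose, and the iron-deficient group ate the same diet lacking ferric citrate. Near the end food was offered in the daytime only, and on day 17 of the diets rats of both groups ate for 1.5 h before sacrifice. Hemoglobin in the iron-deficient group then stood at 42% of control. Diets were given to 7 iron-deficient and 6 control rats, and 4 livers of each group were hybridised, 1 array per liver. The labels call the arrays biological replicates without saying which rats were used. Feeding time, sex and strain were shared by both groups.

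Growth hormone binds a receptor dimer (Ghr) that carries Jak2. Jak2 phosphorylates Stat5b, which enters the nucleus, binds DNA at a palindromic site and drives, among others, Cish and Socs2, whose products dampen the receptor's signal. Male rats secrete the hormone in separate pulses and female rats more evenly, and liver reads this pattern through Stat5b, Bcl6, Cux2 and Onecut1, so that many liver genes differ between the sexes. Cish and Bcl6 are known to move in opposite directions when Stat5b is activated.

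The promoter of Cish is shown because Cish is the Stat5b target among the members whose diet groups did not overlap. That held on probe set 1378586_at but not on 1388233_at. The palindrome also recurs in this promoter. The window covers 250 bases before to 50 bases after the annotated start (RefSeq, build GRCr8, chr8:116850719-116851018, + strand). Capitals mark each TTCNNNGAA, the spaced palindrome bound by Stat5 proteins, which reads the same on both strands.
Cish: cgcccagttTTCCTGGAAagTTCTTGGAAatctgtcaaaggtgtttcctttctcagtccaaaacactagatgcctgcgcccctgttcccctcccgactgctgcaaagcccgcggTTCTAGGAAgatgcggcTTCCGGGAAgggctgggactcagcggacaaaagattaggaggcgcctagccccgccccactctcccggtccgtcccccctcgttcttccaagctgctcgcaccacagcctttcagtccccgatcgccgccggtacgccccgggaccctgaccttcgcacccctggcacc
The 4 matches began 241, 230, 136 and 119 bases before the start, in 2 close pairs. Of 33469 promoter windows of 300 bases, 2970 (8.87%) held at least 1 match, 183 held at least 2, and 2 (0.00598%) held at least 4. Among 9 windows of 8 members, the only other one with a match was a second start of Prlr (chr2:60909409-60909708), with a TTCTAGGAA 176 bases before it. Ghr, Jak2, Stat5b, Bcl6, Cux2, Obp3 and the first Prlr start had no match in their windows, which says only that these letters are not there. Socs2 and Onecut1 were not among the windows used. A match is a description of sequence and not evidence of binding.

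The values are log2 array values in which differences between livers were compressed, by an amount that varied from 1 probe set to the next. Probe sets of Prlr with an r of 0.930 across the 8 livers differed 5.11-fold in SD, and those of Cish with an r of 0.992 differed 3.01-fold. No difference is read here as a fold change, and sizes are not set against each other across probe sets. Each difference is iron-deficient minus control with its SE from limma, followed by a standardised value, obtained on dividing it by the SD within the groups. Adjusted p-values are Benjamini-Hochberg values over all 31042 probe sets.

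Among the livers, the first principal component held 23.6% of the variance and the second 16.7%. Hamp, which encodes hepcidin and falls in iron deficiency, was below every control value (15.99 to 16.10) in all 4 iron-deficient livers, at 6.98, 10.58, 6.99 and 6.93, so iron-deficient replicate 2 stood apart from its group on this gene. Hepatocyte markers, 9 of 9 measured, had a mean level near 13.70 in both groups, and 1 of 9 did not overlap. Endothelial markers, of which 5 of 7 were measured, lay on average 1.76 to 2.89 within-group SDs above the control mean in iron-deficient livers and between -0.450 and 0.414 in controls. Stellate cell markers, 7 of 7 measured, lay at 1.32 to 2.07 against -0.230 to 0.219. In each of these 2 lists 3 genes did not overlap between the groups, where 7.82% of all genes did not. Under quantile normalization without Hamp, 1 of 5 endothelial and 2 of 7 stellate markers did not overlap, and the median standardised difference of the lists moved from 3.37 to 0.707 and from 2.01 to -0.582. No marker was at 0 on this log2 scale. Kupffer cell markers (5 of 7 measured) lay at 0.0102 to 1.64 against -0.855 to 0.579, and cholangiocyte, lymphocyte and erythroid markers overlapped. The part of these cell types in the results below was not tested. In whole liver a change in the number of cells of a type and a change in RNA per cell cannot be told apart.

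The comparison asked how the growth hormone pathway stood in iron-deficient liver. Cish, a brake on receptor signalling, was lower in all 4 iron-deficient livers than in any control liver on 1 probe set and in 3 of 4 on the other. Obp3, an abundant secreted protein of male rat liver, was higher in all 4 on both of its probe sets and had the largest standardised differences of the 10 genes. Jak2 and 1 of 2 Cux2 probe sets were higher without overlap as deposited, but overlapped after median centring and after quantile normalization. Bcl6, Ghr, Socs2, Stat5b, Prlr and Onecut1 overlapped between the diets. On Bcl6 and on 1 of 3 Prlr probe sets, 3 of 4 iron-deficient livers lay above every control. No member passed the adjusted threshold of 0.05 in limma, which 0.0322% of all probe sets (10 of 31042) did.

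At an unadjusted p under 0.05, 8 of 17 member probe sets differed, 6 higher and 2 lower, where 11.4% of all probe sets did (5.2% higher and 6.2% lower). The groups did not overlap on 5 of 17 probe sets, 4 higher and 1 lower, against 6.48% of all probe sets (3.07% higher and 3.41% lower). By gene, with each gene represented by the probe set with the highest mean, 5 of 10 had an unadjusted p under 0.05 (13.2% of all genes) and 4 of 10 did not overlap (7.82%). The members were chosen with earlier results of these data known, and probe sets of the same gene are not independent. These counts are descriptions and cannot show an excess for the pathway. The median standardised difference was 0.751 over the 10 genes and -0.0727 over all 14217. For the 10 genes it was 0.523 under quantile normalization, 0.155 when that was computed without Hamp and 0.280 after median centring. Of the 5 probe sets that did not overlap, those of Jak2 and Cux2 overlapped after median centring and after quantile normalization, while 1 of Cish and both of Obp3 remained apart. The array medians ran from 7.1195 to 7.1205. That spread is wider than the differences of Jak2 (4.41e-06) and Cux2 (1.45e-04) and narrower than those of Cish and Obp3. Which groups overlap after median centring therefore depends on the size of the difference and is not a check on it.

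**Figure D1:**
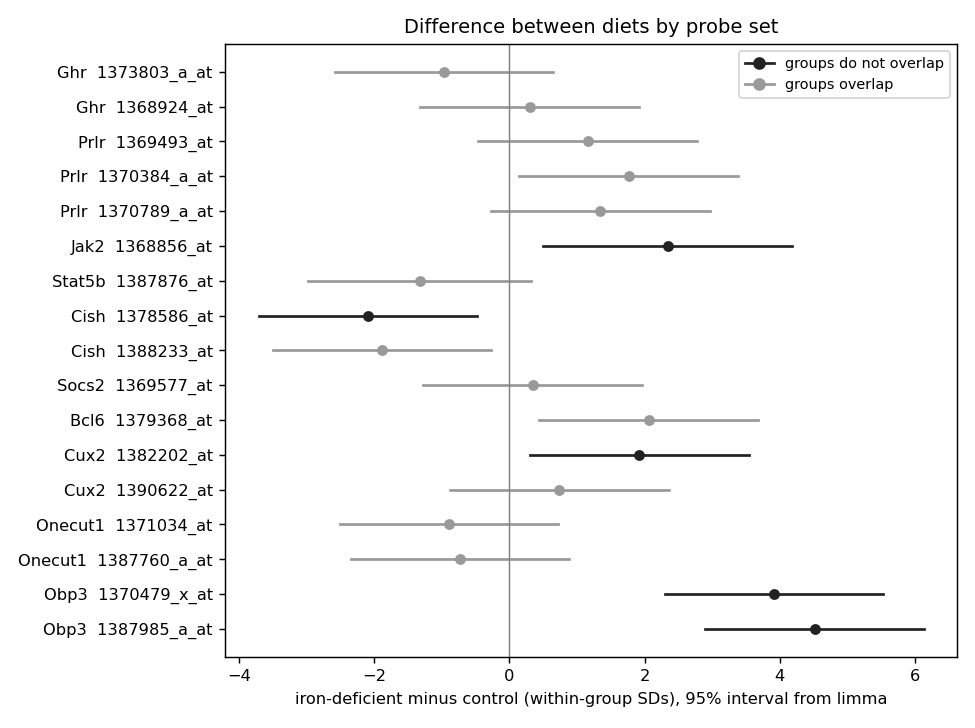
Difference between diets for the 17 member probe sets, in within-group SDs (x axis), with the 95% interval from limma (n = 4 and 4 livers). The intervals of Obp3 lie farthest from 0, at standardised differences of 3.92 and 4.52, and that of Cish 1378586_at lies below 0 at -2.09.

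Ghr, the receptor for growth hormone, was measured by 1373803_a_at and 1368924_at, and the 2 disagreed in sign. On 1373803_a_at the iron-deficient livers read 11.620484, 11.620322, 11.620362 and 11.620385 and the control livers 11.620575, 11.620502, 11.620336 and 11.620474. The difference was -8.33e-05 ± 5.81e-05 (SE, standardised -0.970, limma adjusted p = 0.653), and it turned positive (3.91e-04) under quantile normalization. When that was computed without Hamp, the difference stayed negative, at -8.93e-04 (standardised -2.12, limma adjusted p = 0.331). The groups overlapped, and the lowest liver of all was an iron-deficient one. On 1368924_at the difference was 0.00232 ± 0.00519 (standardised 0.302, limma adjusted p = 0.921), and it turned negative (-0.00237) without control replicate 3. No direction can be given for Ghr.

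Prlr, the prolactin receptor, uses the same Jak2 and Stat5 relay as Ghr and is abundant in female rat liver. On 1369493_at the iron-deficient livers read 7.3155, 7.3153, 7.3274 and 7.3348, and the control livers read 7.3207, 7.3111, 7.3142 and 7.3130. Iron-deficient replicates 3 and 4 lay above every other liver, while replicates 1 and 2 lay within the control range. The difference was 0.00853 ± 0.00498 (standardised 1.16, limma adjusted p = 0.583; exact two-sided permutation p = 0.171).

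The other Prlr probe sets gave the same order of livers in the main. 1370384_a_at read 6.577, 6.583, 6.657 and 6.665 in iron deficiency and 6.574, 6.531, 6.578 and 6.533 in controls, a difference of 0.0664 ± 0.0255 (standardised 1.76, limma p = 0.0370, adjusted p = 0.406; exact permutation p = 0.0571). 1370789_a_at had a difference of 0.0487 ± 0.0245 (standardised 1.35, limma adjusted p = 0.520). Across the 8 livers the 3 probe sets correlated at 0.930 to 0.996 with each other, and iron-deficient replicates 3 and 4 were the 2 highest on all 3. The mean of 1370789_a_at was below the 25th percentile of all probe sets (6.55), so a level above background was not shown for it. Without iron-deficient replicate 4 the differences of 1369493_at and 1370789_a_at were 0.00468 and 0.0299.

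Jak2, the kinase bound to both receptors, read 7.08799485, 7.08799433, 7.08799405 and 7.0879925 in iron-deficient livers and 7.08798917, 7.08799103, 7.0879862 and 7.08799169 in controls. All 4 iron-deficient values lay above all 4 controls, by differences at the sixth decimal. The difference was 4.41e-06 ± 1.45e-06 (standardised 2.34, limma p = 0.0202, adjusted p = 0.343; exact permutation p = 0.0286), but under quantile normalization it was negative, at -1.96e-04. The order of the groups depended on the scaling.

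Stat5b, the main Stat5 protein of liver, read 7.132338, 7.132343, 7.132342 and 7.132333 in iron deficiency and 7.132349, 7.132337, 7.132351 and 7.132350 in controls. The iron-deficient livers lay below 3 of 4 controls, and control replicate 2 lay among them. The difference was -7.72e-06 ± 3.98e-06 (standardised -1.33, limma adjusted p = 0.530), and it was positive under quantile normalization with Hamp (7.06e-05) and without it (3.54e-06). After median centring it was 4.29e-05, which is the deposited difference plus the 5.06e-05 that centring adds to all probe sets alike. No direction is given for Stat5b.

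Cish encodes an SH2 protein that binds the activated receptor and limits Stat5 signalling, and its transcript is a widely used readout of Stat5 activity. On 1378586_at the iron-deficient livers read 7.493, 7.393, 7.157 and 7.113 and the control livers 7.550, 7.569, 7.628 and 7.525. The groups did not overlap. The controls lay close together (7.568 ± 0.0436, SD, n = 4) and the iron-deficient livers were spread widely (7.289 ± 0.183, SD, n = 4), from just under the control range to far below it. The difference was -0.279 ± 0.0900 (SE, standardised -2.09, limma p = 0.0188, adjusted p = 0.338; exact two-sided permutation p = 0.0286, the smallest that 4 against 4 allows).

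The second Cish probe set, 1388233_at, read 6.870, 6.827, 6.754 and 6.742 in iron deficiency and 6.891, 6.873, 6.898 and 6.867 in controls. Its order within the iron-deficient group was the same, and replicate 1 overlapped the controls. The difference was -0.0836 ± 0.0300 (standardised -1.89, limma adjusted p = 0.381; exact permutation p = 0.0571). The 2 probe sets correlated at 0.992 over all livers and at 0.983 within the diets, so the spread within the iron-deficient group was measured by both.

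Socs2 encodes a second inhibitor that targets the growth hormone receptor for degradation and is likewise a Stat5b target. It read 7.0902, 7.0974, 7.0935 and 7.0872 in iron deficiency and 7.0927, 7.0897, 7.0902 and 7.0913 in controls. The control range lay inside the iron-deficient one. The difference was 0.00112 ± 0.00219 (standardised 0.345, limma adjusted p = 0.904), and it was negative (-6.61e-04) without iron-deficient replicate 2. Socs2 did not follow Cish from liver to liver: within the diets the 2 correlated at 0.286 (8 livers, a description).

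**Figure D2:**
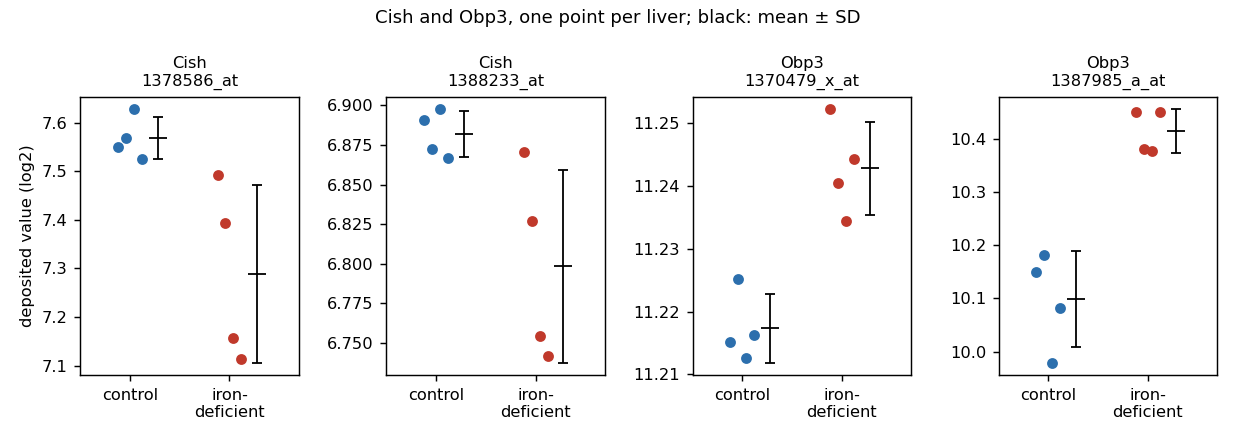
Deposited log2 values of the 2 Cish and 2 Obp3 probe sets by diet, 1 point per liver (n = 4 and 4), with the mean ± SD in black and a separate y axis for each panel. Iron-deficient livers spread from 7.113 to 7.493 on Cish 1378586_at, below all controls, and lie above all controls on both Obp3 probe sets.

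Bcl6 encodes a transcriptional repressor that can occupy Stat5 sites and is higher in male liver. Its probe set read 8.172, 8.166, 8.238 and 8.241 in iron deficiency and 8.101, 8.116, 8.168 and 8.138 in controls. Of the iron-deficient livers, 3 lay above every control, and replicate 2 lay just below the highest control. The means were 8.204 ± 0.0409 and 8.131 ± 0.0291 (SD, n = 4 each), a difference of 0.0733 ± 0.0240 (SE, standardised 2.06, limma p = 0.0200, adjusted p = 0.343; exact permutation p = 0.0571).

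Cux2, a repressor of male-biased genes normally expressed in female liver, had values near the bottom of the array's range. 1382202_at read 6.193639, 6.193743, 6.193888 and 6.193723 in iron deficiency and 6.193635, 6.193602, 6.193572 and 6.193606 in controls. The groups did not overlap, by a margin at the sixth decimal. The difference was 1.45e-04 ± 5.09e-05 (standardised 1.92, limma p = 0.0268, adjusted p = 0.372; exact permutation p = 0.0286). On 1390622_at it was 1.89e-05 ± 1.73e-05 (standardised 0.741, limma adjusted p = 0.749), turning negative (-2.67e-05) under quantile normalization. The means of 1382202_at and 1390622_at stood at the 9.18 and 5.03 percentiles of all probe sets, so a Cux2 level above background was not shown in these male livers.

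Onecut1, also called HNF6, is a liver transcription factor that growth hormone stimulates and that acts on female-biased genes. On 1371034_at the iron-deficient livers read 9.812, 9.807, 9.770 and 9.710 and the controls 9.775, 9.825, 9.814 and 9.817. Iron-deficient replicates 3 and 4 were the lowest, followed by control replicate 1, and the other 5 livers lay close together. The difference was -0.0330 ± 0.0249 (standardised -0.895, limma adjusted p = 0.684). The second probe set, 1387760_a_at, had a difference of -0.00808 ± 0.00747 (standardised -0.731, limma adjusted p = 0.753) and correlated with the first at 0.980. Without iron-deficient replicate 4 the differences were -0.0114 and -0.00177.

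Obp3 belongs to the alpha-2u-globulin family, lipocalins that male rat liver secretes in large amounts and that depend on growth hormone and androgen. On 1387985_a_at the iron-deficient livers read 10.450, 10.381, 10.376 and 10.449 and the controls 10.150, 10.182, 9.979 and 10.081. The groups were well apart, with means of 10.414 ± 0.0410 and 10.098 ± 0.0899 (SD, n = 4 each). The difference was 0.316 ± 0.0472 (SE, standardised 4.52, limma p = 3.70e-04, adjusted p = 0.106; exact permutation p = 0.0286), which ranked 107 of 31042 by p.

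1370479_x_at, the other Obp3 probe set, read 11.252, 11.240, 11.235 and 11.244 in iron deficiency and 11.215, 11.225, 11.213 and 11.216 in controls. The groups again did not overlap. The difference was 0.0255 ± 0.00441 (standardised 3.92, limma p = 0.000838, adjusted p = 0.134; exact permutation p = 0.0286). The 2 probe sets correlated at 0.955 over all livers and at 0.700 within the diets. Both had adjusted p under 0.05 after quantile normalization (0.0126 and 0.0138 for 1387985_a_at and 1370479_x_at) and after median centring (0.00418 and 0.0103), settings in which 3.52% and 0.203% of all probe sets passed. Neither did under quantile normalization computed without Hamp. The family holds several near-identical genes, and which of them the probes report is uncertain.

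**Figure D3:**
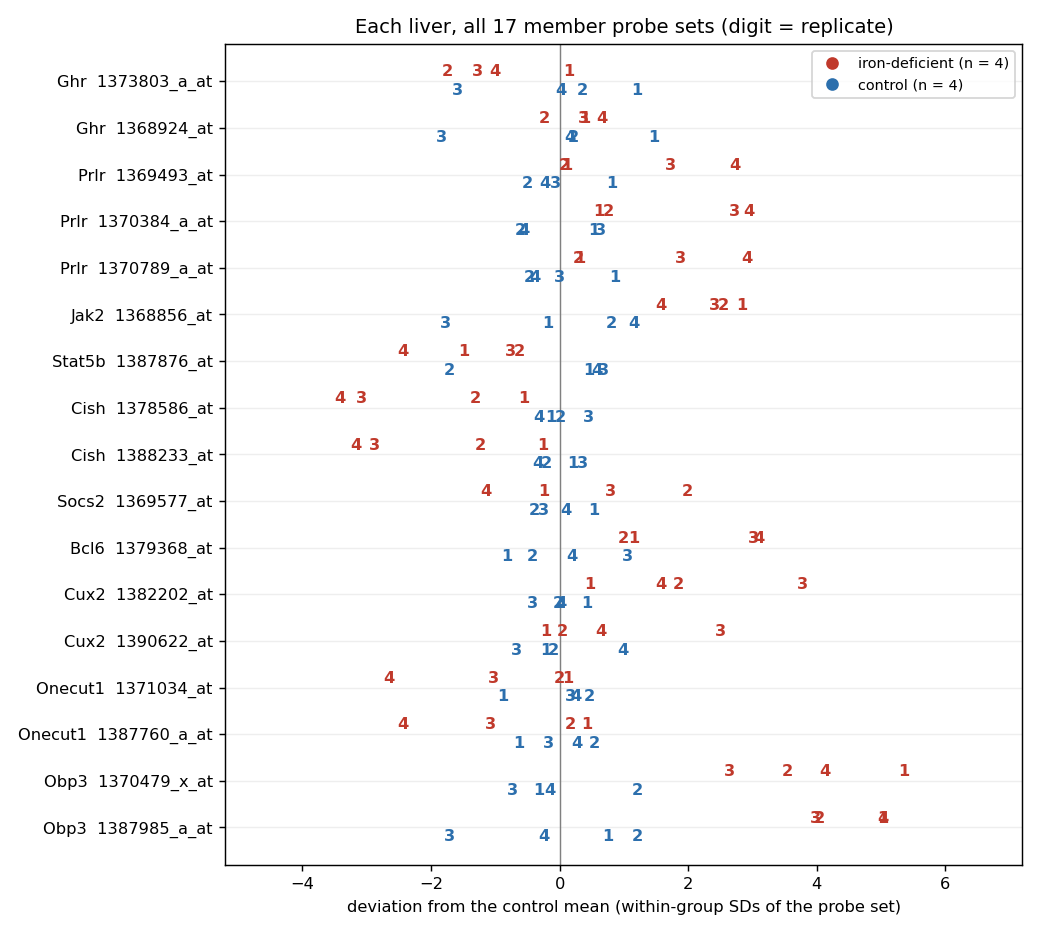
Each liver on each of the 17 member probe sets, as its deviation from the control mean in within-group SDs of that probe set (x axis), with digits for the replicate and colour for the diet. Iron-deficient replicates 3 and 4 lie together at the high end of Prlr and Bcl6 and at the low end of Cish and Onecut1, whereas on Obp3 all 4 iron-deficient livers lie above the controls.

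The members differed in how the 4 iron-deficient livers were arranged. Replicates 3 and 4 were the 2 highest of all 8 livers on 3 of 3 Prlr probe sets and on the Bcl6 probe set, and the 2 lowest on 2 of 2 Cish and 2 of 2 Onecut1 probe sets. These 2 livers lay side by side on the first principal component of all probe sets (86.0 and 87.4) but at opposite ends of the second (-120 and 78.7). On Obp3 and Socs2 they did not stand together apart from the other 2. On Jak2 they were the 2 lowest of the iron-deficient livers. Replicate 3 there lay nearer to replicate 2 than to replicate 4 (2.41, 2.55 and 1.58 within-group SDs above the control mean). Replicate numbers carry no order, and the labels give nothing that separates these livers from the others of their group.

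Correlations across the 8 livers were computed for the 15 pairs among the 6 members whose diet groups overlapped (Ghr, Prlr, Stat5b, Socs2, Bcl6 and Onecut1). Prlr and Onecut1 ran opposite to each other, with a Pearson r of -0.977 (exact permutation p = 4.96e-05, 0.000744 after Benjamini-Hochberg adjustment over the 15 pairs). Spearman's rho was -0.976 (exact permutation p = 0.000397, adjusted 0.00595). It was the only pair of the 15 to pass. Without iron-deficient replicates 3 and 4, the farthest from the median, r was -0.973.

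The relation was present in both diets, with r of -0.975 among the 4 iron-deficient and -0.993 among the 4 control livers, and -0.978 over deviations from the diet means. All 6 combinations of the 3 Prlr and 2 Onecut1 probe sets gave r between -0.977 and -0.851. Over the 5 livers that lay close together, without iron-deficient replicates 3 and 4 and control replicate 1, r was -0.951, a check chosen after seeing the data. In the control group, replicate 1 had both the highest Prlr (7.3207) and the lowest Onecut1 (9.775) value. Of the 14216 other genes, none had a stronger r of either sign with Onecut1 than Prlr did, and Onecut1 ranked 4 for Prlr. These ranks were looked up after the pair had been seen.

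**Figure D4:**
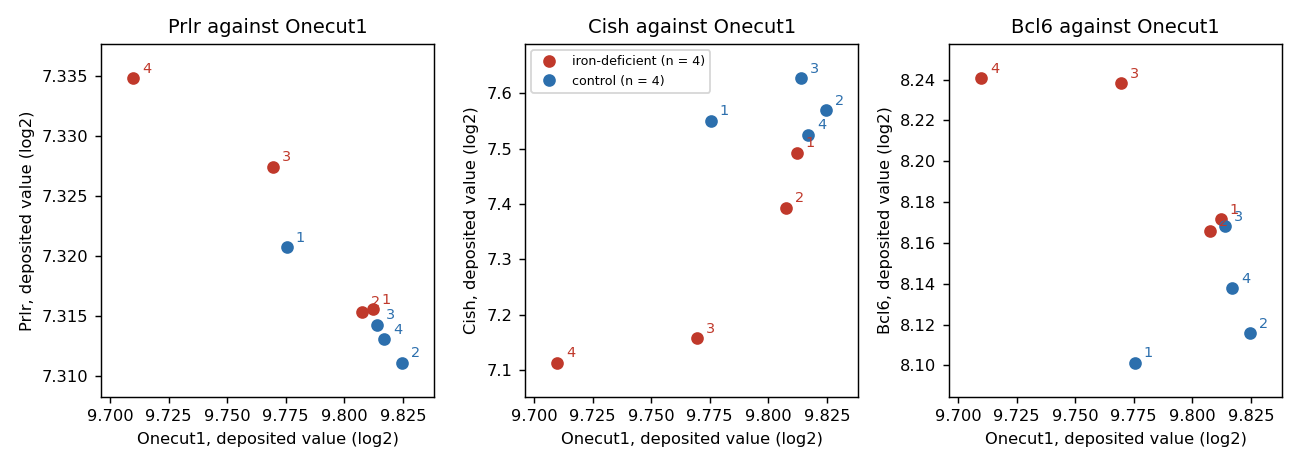
Prlr, Cish and Bcl6 (y axes) against Onecut1 (x axis), deposited log2 values of the probe set with the highest mean, 1 point per liver, coloured by diet and numbered by replicate. The livers of both diets lie along a single falling line for Prlr (r = -0.977), while on Cish the iron-deficient livers lie below the controls at all Onecut1 values.

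Prlr and Bcl6 had an r of 0.755 (exact permutation p = 0.0314, adjusted 0.236), which was -0.238 without iron-deficient replicates 3 and 4, so it rested on those livers. For Bcl6 and Onecut1 r was -0.644 (exact permutation p = 0.0782, adjusted 0.293), and without the same livers it was 0.431. Because the Cish groups did not overlap on 1378586_at, the probe set used, only deviations from the diet means were set against each other for Cish. They correlated at -0.857 with Prlr, 0.804 with Onecut1, -0.674 with Bcl6 and -0.651 with Cux2, over 8 livers and given as descriptions. Among the 4 iron-deficient livers r was -0.949, 0.890, -0.958 and -0.646, and among the 4 control livers it was -0.118, 0.196, 0.636 and -0.747. The values for Prlr, Onecut1 and Bcl6 thus came from the iron-deficient group, and that for Bcl6 had the opposite sign in controls. In the iron-deficient group replicates 3 and 4 lay apart from the others on Cish and on each of these genes. Those correlations therefore rest largely on that split. For Cux2 a level above background was not shown.

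The genes whose values across the 8 livers were most like a member's were listed for Cish, Socs2 and Obp3, out of 14207 other genes. For Cish they were Tmem42 (r = 0.970), Slc22a7 (0.968), an organic anion transporter of the hepatocyte, and Ccdc191 (0.968), and 76 genes had r above 0.9. For Socs2 they were Ripply1 (0.948), Kcnj10 (0.935), a potassium channel, and Hmgb1 (0.934), with 13 genes above 0.9. For Obp3 they were Ackr4 (0.975), a chemokine-scavenging receptor, Col14a1 (0.971), a collagen, and Rgs2 (0.969), a regulator of G protein signalling, with 85 above 0.9. For Cish and Obp3, whose groups did not overlap on the probe set with the highest mean, used here, the difference between diets is part of that likeness.

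The wider pathway was read from 5 lists. Of the relay and brake genes of receptor signalling, 18 of 19 were measured. As deposited, 8 were higher and 10 lower, where 47% of all genes were higher, with a median standardised difference of -0.0545, and 13 were higher under quantile normalization, but 9 higher, 8 lower and 1 equal when Hamp was omitted. None passed the adjusted threshold in limma as deposited, which 0.0422% of all genes did, and 1 of 18 had an unadjusted p under 0.05 and groups that did not overlap. This was Ptpn2, a phosphatase that removes phosphate from Jak and Stat proteins, at 1.83e-05 ± 6.27e-06 (standardised 1.99, limma adjusted p = 0.359). Its groups overlapped under quantile normalization (standardised 0.944), when that was computed without Hamp (0.0522) and after median centring (0.237). The Ptpn2 difference was below the spread of the array medians, so overlap after centring is not a check on it. Jak1, a related kinase, had a difference of 9.9e-07 ± 8.08e-07 (standardised 1.60), and Irs2, an adaptor shared with insulin signalling, one of -8.03e-05 ± 4.47e-05 (-1.22). No direction is given for the list. Median centring adds 5.06e-05 to every difference alike, which alone turns small negative differences positive, so counts by sign after it are not given. Under quantile normalization 1 relay gene, 3 hormone products, 4 male-biased genes, 1 female-biased gene and 2 transcription factors had an adjusted p under 0.05 in limma, where 3.52% of all probe sets did, and none of the 5 lists had such a gene once Hamp was omitted.

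The hepatic hormone products (5 of 6 measured) were 1 higher and 4 lower as deposited, with none at an unadjusted p under 0.05. Under quantile normalization 5 of 5 were higher, and with Hamp omitted from it 1 was higher, 2 lower and 2 equal. Igf1, the growth factor through which growth hormone acts on the skeleton, had a difference of -1.03e-05 ± 1.64e-05 (standardised -0.425), and Igfals, which carries it in plasma, had -1.72e-04 ± 9.44e-05 (-1.23). Both were positive under quantile normalization, and with Hamp omitted the difference of Igf1 was 0 and that of Igfals -0.00231. Igf1 then had the same value in all livers, which follows from an unchanged rank, so its 0 is not a check on the diet difference. Serpina3n, a secreted protease inhibitor, had a difference of 1.02e-04 ± 7.66e-05 (standardised 0.905).

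Sex-biased liver genes that follow the hormone's pattern were described in both directions. Of the male-biased list 7 of 8 were measured, 5 higher and 2 lower as deposited, with a median standardised difference of 0.116. Cyp2a2, a male-specific cytochrome P450, did not overlap between the diets, with a difference of 1.76e-04 ± 4.45e-05 (standardised 2.66, limma adjusted p = 0.249). Cyp2c11, the major male-specific cytochrome P450, read 14.3556061 or 14.3556062 in every liver. Its difference of 3.25e-08 ± 6.92e-07 (standardised 0.691) was far below its SE. No direction is given for it, though it is counted among the 5 higher. For both genes the difference was 0 under quantile normalization computed without Hamp. Each then had the same value in all livers, which follows from an unchanged rank, so this 0 is not a check on the diet difference.

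Of the female-biased list 8 of 9 were measured, 4 higher and 4 lower, with a median of 0.171 and none at an unadjusted p under 0.05. Cyp3a9 had a difference of 0.158 ± 0.0932 (standardised 1.14), and Sult2a1, a sulfotransferase, had -2.36e-06 ± 1.89e-06 (-0.911). Sult2a1 stood at the 1.44 percentile of all probe sets, so a level above background was not shown for it. The same holds for A1bg (19.5 percentile) and, in the male-biased list, Cyp7b1 (6.79), which are included in the counts. No gene of either sex-biased list had an adjusted p under 0.05 as deposited.

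Liver-enriched transcription factors (9 of 10 measured) were 4 higher and 5 lower as deposited, with 3 at an unadjusted p under 0.05 and none without overlap. Cebpb, a factor of the acute phase and of feeding responses, had a difference of 7.16e-04 ± 2.23e-04 (standardised 2.17, limma adjusted p = 0.324). Its standardised value was 1.80 under quantile normalization, 0.486 when that was computed without Hamp and 2.11 after median centring. Foxa3 had a difference of 1.98e-05 ± 7.61e-06 (1.77), with standardised values of 1.47, 1.02 and 0.234 in the same 3 settings. Foxa1, which is also a pioneer factor of liver chromatin, had -1.06e-04 ± 4.10e-05 (-1.74), which was positive under quantile normalization and 0 with Hamp omitted from it.

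**Figure D5:**
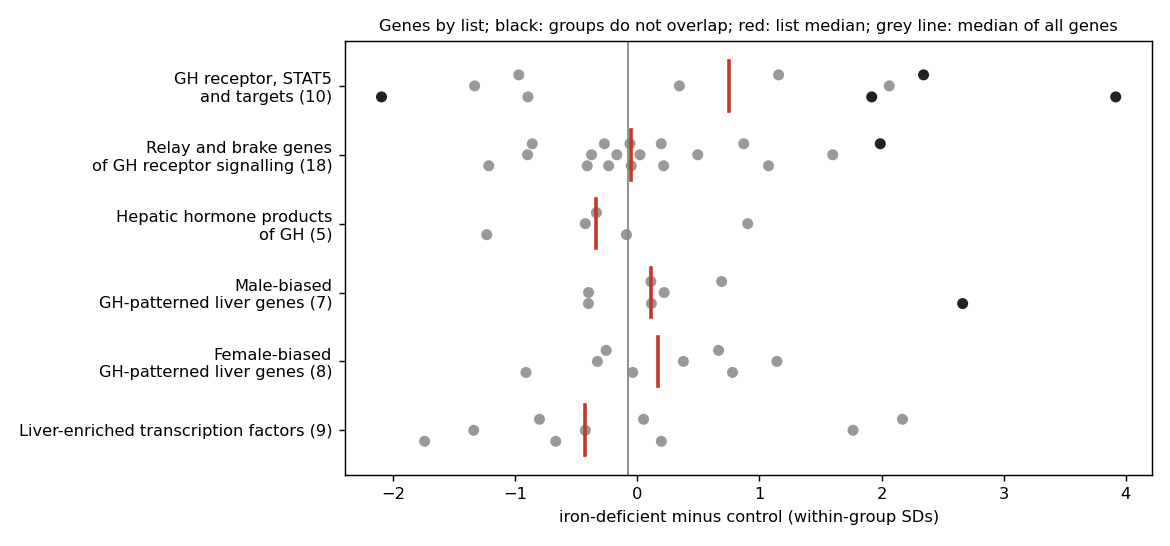
Standardised difference between diets (x axis, within-group SDs) for the 10 members and the genes of the 5 pathway lists, 1 point per gene, black where the 2 groups of 4 livers do not overlap. Red bars are list medians, 0.751 for the members in the values as deposited, and the grey line is the median of all genes (-0.0727). Obp3 is the point farthest to the right and Cish the farthest to the left.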

How the data were processed

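Affymetrix rat arrays were hybridised with biotin-labelled cRNA made from 2 ug of liver RNA, per the labels' protocols. The deposited table holds log2 values, a scale read from the values (5.32 to 16.1, array medians 7.1195 to 7.1205). For the authors' summary and normalization steps, a method was not given in the sources used here. Of 31099 probe sets, 57 controls were left out. Of the rest, 20826 had 1 symbol in the platform annotation, 436 several and 9780 none. Diets were compared in R 4.3.3 by limma 3.58.1 (lmFit, then eBayes with neither trend, robust option nor block), with Benjamini-Hochberg adjustment and a threshold of 0.05. Scripts were tested on simulated data, with 50 probe sets shifted at each size. The fit recovered 0% of shifts of 2 within-group SDs, 26% of 4 and 88% of 8, with 8 false calls. Failing the threshold therefore does not show that a gene was unchanged. Exact permutation tests were two-sided. The rule named every member probe set, the 3 genes most like each of Cish, Socs2 and Obp3, and at most 4 genes per list. Members and lists were chosen with earlier results of these data known. Alternatives were quantile normalization with and without Hamp, median centring, a filter on the lowest 25%, trend and robust fits, a replicate block, averaged probe sets and leaving out each array. With 4 arrays per group, their number limits the precision.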

Additional observations from a re-analysis of the deposited data

Results flagged for a closer look

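On Stat5b (1387876_at), control replicate 2 was far below the other controls, at 7.132337 against 7.132349 to 7.132351, a gap of 0.903 of the group's range, above Dixon's 95% critical value for 4 samples. It was the single value that stood out in this way among 34 groups of 4 livers (17 probe sets in 2 diets), and chance gives about 5% of groups.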

How the results depend on the processing

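As deposited, 10 probe sets passed the threshold in limma. The number was 1093 after quantile normalization, 84 when that was run without the Hamp probe set and 63 after median centring. Quantile normalization ranks each array, and with Hamp near the top in controls only, genes at the upper end shift by a rank. Of the 17 member probe sets, 0 passed as deposited (8 at an unadjusted p under 0.05), and 2, both of Obp3, passed after quantile normalization and after median centring. Non-overlapping member probe sets numbered 3 in place of 5 under all 3 of these scalings, where 6.45%, 3.02% and 0.573% of all probe sets did not overlap, against 6.48% as deposited. After median centring, which groups overlap depends on the size of the difference, so that count is not a check. Quantile normalization turned the sign of Ghr 1373803_a_at (3.91e-04), Jak2 (-1.96e-04), Stat5b (7.06e-05) and Cux2 1390622_at (-2.67e-05). Without Hamp it turned Jak2 (-2.84e-04), Stat5b (3.54e-06) and Cux2 1390622_at (-2.67e-05), and median centring turned Stat5b (4.29e-05), by adding 5.06e-05 to all probe sets alike. The mean of both probe sets turned Ghr (0.00112). Why signs turned under quantile normalization or averaging was not tested.

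Leaving out each array in turn gave 4 to 27 called probe sets, 27 without iron-deficient replicate 3, 4 without iron-deficient replicate 4 or control replicate 3, 5 without iron-deficient replicate 2 and 6 without control replicate 2. Member probe sets called stayed at 0, those with an unadjusted p under 0.05 numbered 5 to 7 against 8 (5 without iron-deficient replicate 3 or 4 or control replicate 2), and those without overlap 5 to 8 (8 without control replicate 1), while the share of all probe sets without overlap was 8.69% to 13.4% (13.4% without control replicate 1). Socs2 ran from -6.61e-04 (without iron-deficient replicate 2) to 0.00274 and Ghr 1368924_at from -0.00237 (without control replicate 3) to 0.00607. Without iron-deficient replicate 4, Onecut1 was -0.0114 and -0.00177 and Prlr 1369493_at and 1370789_a_at 0.00468 and 0.0299. The Cish 1378586_at difference ran from -0.347 to -0.220 and that of Obp3 1387985_a_at from 0.276 to 0.344. For Prlr and Onecut1 r ran from -0.996 to -0.957, and for Prlr and Bcl6 from 0.595 to 0.939.

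Same-numbered livers of the 2 diets did not deviate together (r = -0.111, 0.0245, -0.0251 and -0.0773). The labels do not say whether the numbers pair rats, and these correlations cannot decide it. With the replicate block 1 probe set was called, no member was, and 5 member probe sets had an unadjusted p under 0.05. An array correlated best with its own number in 1 of 4 iron-deficient and 0 of 4 control livers. Trend and robust fits and the filter on the lowest 25% turned no member's sign, and the filter left out both Cux2 probe sets and Prlr 1370789_a_at. Dim signal limits those 3.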
